A study of Saccharomyces cerevisiae with 30 samples.

Results

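The genes described here are 9 of the 5449 yeast genes that an Affymetrix yeast array measured with a named probe set, a group of short probes for one gene. They are the kinases that phosphorylate hexoses at the head of glycolysis (HXK1, HXK2, GLK1 and EMI2), the Mig repressors (MIG1, MIG2 and MIG3) and the kinases that make fructose-2,6-bisphosphate (PFK26 and PFK27). They were taken by name from the array's annotation, without a filter on their values. The set was chosen with earlier results of these data known. Each had exactly 1 probe set, of the type designed for a single gene, and each lay above background on all 30 arrays. All 9 were therefore among the 5429 genes tested. Their systematic names are YFR053C (HXK1), YGL253W (HXK2), YCL040W (GLK1), YDR516C (EMI2), YGL035C (MIG1), YGL209W (MIG2), YER028C (MIG3), YIL107C (PFK26) and YOL136C (PFK27).

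The arrays came from cultures of Saccharomyces cerevisiae strain S288C, a laboratory strain, in synthetic medium with 2% dextrose at 30 °C. The tested compounds, each given for a short (about 4 h) and a long exposure (about 15 h), were eupolauridine-9591 (E9591, 0.053 µM) and liriodenine methiodide (LMT, 2.6 µM). The iron chelators 2,2'-bipyridyl (BIPR) at 65.9 µM and 1,10-phenanthroline (PHEN) at 6.2 µM were given for about 4 h, to define the response to iron deficiency. Doses were set at the IC50 of each compound, and the DMSO cultures received 0.25% solvent. All cultures were treated at an optical density (OD600) of 0.2. Those at 4 h were harvested at 0.5, whereas the long exposure lasted 4.5 doublings, a larger increase than from 0.2 to 0.5. The sources used here do not give a measured density of the cultures at 15 h or the glucose left in their medium. There were 10 groups of 3 cultures, called biological replicates A, B and C in the labels, in 4 experiments that each had a DMSO group. BIPR and PHEN shared 1 DMSO group, and E9591 and LMT at 15 h shared another, so the changes of each pair share control arrays.

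In budding yeast, hexokinases and glucokinase turn glucose into glucose 6-phosphate. Hxk2 is the main hexokinase of cells growing on plentiful glucose and also takes part in glucose repression with Mig1, a zinc finger repressor that the Snf1 kinase inactivates when glucose runs low. Hxk1 and Glk1 are better known from cells on poor or non-fermentable carbon sources. Mig2 and Mig3 are relatives of Mig1. Pfk26 and Pfk27 make fructose-2,6-bisphosphate, a regulator that activates phosphofructokinase and restrains gluconeogenesis.

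Levels are intensities on a linear scale, which the authors had scaled to a common mean per array, and are given for replicates A, B and C in that order. Changes are log2 differences of group means ± standard error from a limma fit over all 30 arrays (n = 3 arrays per group). A gene was called at a Benjamini-Hochberg adjusted p under 0.05 over the 5429 genes. Background, taken from the probe sets of another yeast species, lay between 11.2 and 34.5 on the different arrays. Over the tested genes, the log2 difference between 2 arrays of one group had an SD between 0.180 and 0.386. The highest values involved replicate C of the chelator experiment's DMSO group (0.386 against A and 0.355 against B), and A and B differed by 0.227. That array also had the lowest HXK1 and the highest HXK2 level of its group, so changes of the members that rest on it are given with and without it. The gene lists described below are given for the chelators with that array only, and how far their counts rest on it is not shown. The alpha mating-type genes checked for this strain (4 of 4) lay above background on all 30 arrays. So did 6 of 6 a-type genes, which an alpha culture is not known to express, at levels between 44.7 and 3177. As each array carries the RNA of a whole culture, a change in RNA per cell and a change in the mix of cells cannot be told apart.

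The levels of the 9 genes spanned very different ranges over the 10 groups. The ratio of the highest to the lowest group was 77.2 for PFK27, 73.1 for MIG2 and 71.6 for HXK2. For the other 6 it lay between 4.57 (GLK1) and 7.30 (MIG3). The 3 wide ranges share their lowest group, DMSO at 15 h. HXK2, MIG2 and PFK27 are related in sequence to HXK1, MIG3 and PFK26, whose probe sets were bright on those same arrays. HXK1 stood at 9992 to 11024, MIG3 at 422 to 523 and PFK26 at 2708 to 3114 there. The low readings of HXK2, MIG2 and PFK27 on these arrays bound any signal that spilled over from the related gene. Spill in the other direction, from HXK2 to the probe set of HXK1 for example, was not tested.

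**Figure D1:**
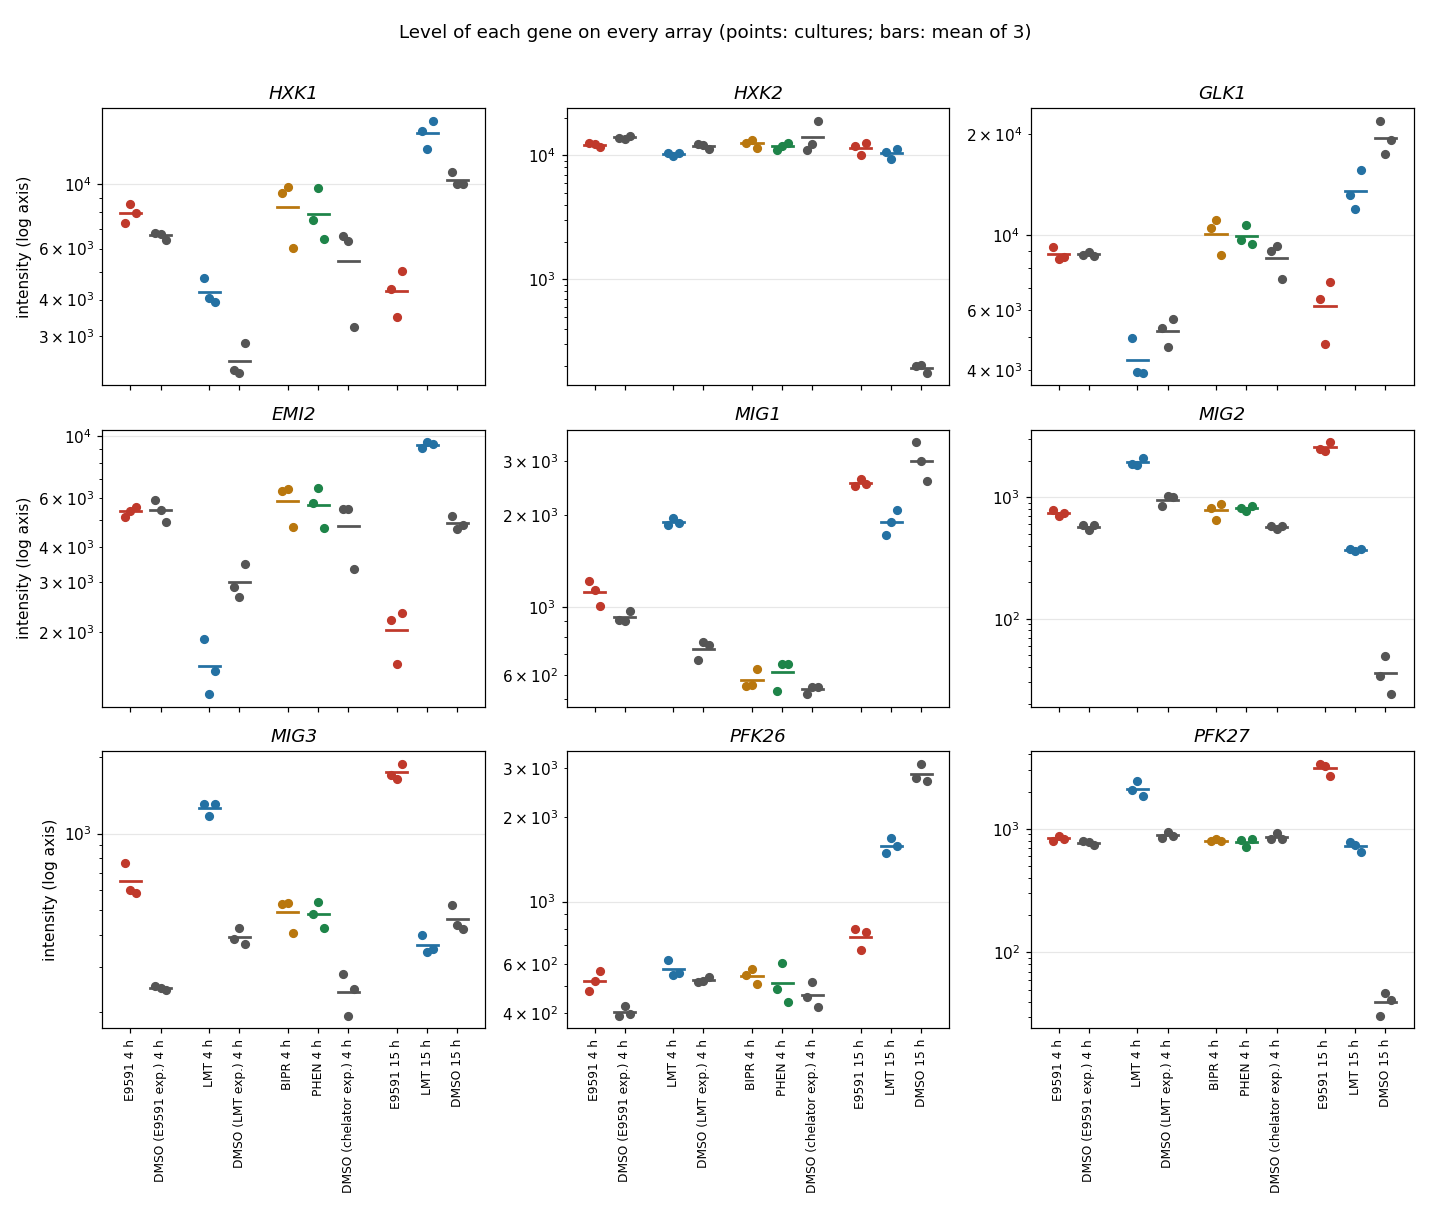
Intensity (vertical, log axis, a separate range in each panel) of the 9 genes on each of the 30 arrays, by group; points are cultures and bars the mean of 3. HXK2, MIG2 and PFK27 are lowest in the 3 DMSO cultures at 15 h (177 to 205 for HXK2), while PFK26 and GLK1 are highest there.

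Each gene had its own order of groups, and neighbours in an order often overlapped. HXK1 was highest with LMT at 15 h, then in DMSO at 15 h, both separate from all that followed, and lowest in the DMSO cultures of the LMT experiment. HXK2 overlapped from neighbour to neighbour through 9 groups, and only DMSO at 15 h stood apart. GLK1 was highest in DMSO at 15 h and then with LMT at 15 h, and lowest in an overlapping set of E9591 at 15 h, the LMT experiment's DMSO cultures and LMT at 4 h. EMI2 was highest with LMT at 15 h. Its lowest levels were with LMT at 4 h and E9591 at 15 h, which overlapped each other and were separate from the other 8 groups.

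Among the repressors, MIG1 was highest in DMSO and E9591 at 15 h, which overlapped, followed by LMT at 15 h and at 4 h, which also overlapped. MIG2 and MIG3 shared their top places: E9591 at 15 h came first and LMT at 4 h second, each separate from its neighbour. Their bottom places differed, since MIG2 ended with LMT and then DMSO at 15 h, whereas MIG3 ended with the DMSO cultures of the E9591 and chelator experiments. PFK26 had DMSO, LMT and E9591 at 15 h as its top 3, each separate from the next, and its 7 groups at 4 h overlapped from neighbour to neighbour. PFK27 had the same first and second groups as MIG2, and DMSO at 15 h last, below 7 groups that overlapped from neighbour to neighbour.

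E9591 at 4 h was first compared with its DMSO cultures. MIG3 stood out among the 9 genes, and the hexose kinases were close to their DMSO levels. MIG3, a Mig1-related repressor, had 765, 602 and 583 with E9591 against 253, 248 and 244 in DMSO. Every treated culture was more than 2-fold above every DMSO culture, and the change was 1.37 ± 0.13 (limma adjusted p = 7.16e-09). MIG3 ranked 123 of 5429 by the size of its rise. MIG2 had 786, 701 and 739.8 with E9591 against 589.8, 536 and 589 in DMSO, and MIG1 1216, 1137 and 1007 against 905, 899 and 968. PFK26 had 478, 518 and 564 with E9591 against 391, 423 and 396 in DMSO. The groups did not overlap for any of these 3 genes, but the differences were small, at 0.38 ± 0.15 for MIG2 (limma adjusted p = 0.0454), 0.27 ± 0.09 for MIG1 (limma adjusted p = 0.0231) and 0.36 ± 0.10 for PFK26 (limma adjusted p = 0.00449).

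In all, 4 of 9 members were called higher with E9591 at 4 h, against 32% of all genes tested, and 0 were called lower, against 11.3%. The share of higher calls is not far from that background. HXK1 had 7378, 8536 and 7986 with E9591 against 6812, 6759 and 6425 in DMSO, a change of 0.26 ± 0.21 that was not called (limma adjusted p = 0.339) although the groups did not overlap. HXK2 was at -0.19 ± 0.13, PFK27 at 0.11 ± 0.12, and GLK1 and EMI2 within 0.01 of 0 (standard errors 0.13 and 0.19), none of them called. A fit of this experiment alone called HXK1 (0.26, limma adjusted p = 0.0169) and HXK2 (-0.19, limma adjusted p = 0.0164). The 3 small rises depended on how arrays were scaled: under quantile normalization or centring of each array on its median, MIG1, MIG2 and PFK26 were no longer called, and only MIG3 was kept. These scalings moved the median change of all genes to -0.05 and -0.07, against 0.09 as deposited. The MIG2 call was also lost without any 1 of its 6 arrays (0.33 to 0.42), and that of MIG1 without DMSO A or B or E9591 A or B (0.21 to 0.26).

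LMT at 4 h was next set against the DMSO cultures of its own experiment. All 3 Mig repressor genes and PFK27 rose more than 2-fold, HXK1 rose less, and EMI2, a glucokinase-like relative of GLK1, fell 2.01-fold. MIG1 had 1853, 1946 and 1875 with LMT against 674, 768 and 749 in DMSO, a change of 1.37 ± 0.09 (limma adjusted p = 8.98e-12). MIG2 had 1888, 1849 and 2104 with LMT against 854, 1021 and 996 in DMSO, a change of 1.03 ± 0.15 (limma adjusted p = 2.21e-06). The lowest LMT culture lay above the highest DMSO culture for both repressors. MIG3 had 1301, 1174 and 1303 with LMT against 385, 427 and 367 in DMSO, the widest change of the 9 genes at 1.68 ± 0.13 (limma adjusted p = 5.97e-11). PFK27, the fructose-2,6-bisphosphate kinase known to be induced by sugars, had 2047, 2423 and 1855 with LMT against 841, 947 and 876 in DMSO, a change of 1.24 ± 0.12 (limma adjusted p = 2.02e-09). Its relative PFK26 had 616, 547 and 555 against 517, 521 and 536, and its change of 0.12 ± 0.10 was not called.

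The kinase genes moved in different directions with LMT at 4 h. HXK1 had 4744, 4043 and 3938 with LMT against 2290.3, 2237 and 2838 in DMSO (0.79 ± 0.21, limma adjusted p = 0.00202). EMI2 had 1890.3, 1198 and 1451 with LMT against 2895, 2654 and 3498 in DMSO (-1.01 ± 0.19, limma adjusted p = 4.54e-05). Neither pair of groups overlapped. HXK2 had 10442, 9877 and 10477 with LMT against 12435, 12218 and 11237 in DMSO, without overlap, yet its change of -0.22 ± 0.13 was not called (limma adjusted p = 0.135). GLK1, the glucokinase, had 4960.1, 3940.4 and 3918 against 5319.7, 4677 and 5644 and a change of -0.29 ± 0.13 (limma adjusted p = 0.0617), with replicate A of LMT inside the DMSO range. Both were called lower once arrays were centred on their median (-0.42 for HXK2 and -0.50 for GLK1), and GLK1 also without DMSO B (-0.37) or LMT A (-0.40). A fit of the LMT experiment alone called HXK2 lower too (-0.22, limma adjusted p = 0.0148).

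With LMT at 4 h, 5 of 9 members were called higher, against 40.4% of all genes tested, and 1 of 9 lower, against 25.2%. The median change was 0.79 over the 9 genes and 0.10 over all genes tested. All 6 calls were kept under each of the 16 other settings and omissions of an array.

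BIPR and PHEN at 4 h were compared with their shared DMSO cultures. MIG3 rose 2.05-fold with BIPR and 2.03-fold with PHEN, MIG2 rose by less, and HXK1 was called with all arrays but not without 1 low DMSO array. MIG3 had 531, 534 and 409 with BIPR and 485, 541 and 428 with PHEN, against 282, 193 and 245 in DMSO. No chelator culture overlapped the DMSO cultures, and the changes were 1.04 ± 0.13 with BIPR (limma adjusted p = 5.00e-07) and 1.02 ± 0.13 with PHEN (limma adjusted p = 5.80e-07). MIG2 had 820.0, 655 and 887 with BIPR and 822, 777 and 845 with PHEN, against 579, 551 and 584 in DMSO. All 6 chelator cultures lay above the DMSO cultures, with changes of 0.45 ± 0.15 (BIPR, limma adjusted p = 0.0166) and 0.51 ± 0.15 (PHEN, limma adjusted p = 0.00703). The MIG2 call for BIPR was lost under quantile normalization (0.36) and without BIPR A (0.42) or C (0.36).

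HXK1 had 9294, 9752 and 6045 with BIPR and 7508, 9719 and 6462 with PHEN, against 6647, 6374 and 3230.2 in DMSO. Replicate C was the lowest culture in each of the 3 groups, the chelator and DMSO groups overlapped, and DMSO C was the lowest of the 9 cultures. The changes were 0.67 ± 0.21 with BIPR (limma adjusted p = 0.0119) and 0.59 ± 0.21 with PHEN (limma adjusted p = 0.0228). Without DMSO C they were 0.33 and 0.26, with adjusted p-values of 0.148 and 0.263, so neither was called. The BIPR call was also lost without BIPR A (0.58) or B (0.54), and the PHEN call without PHEN B (0.43).

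The same DMSO array read 19036 for HXK2, against 11085 and 12413 on arrays A and B. HXK2 was at -0.14 ± 0.13 with BIPR and -0.22 ± 0.13 with PHEN, neither called, though that for PHEN was called lower without DMSO A (-0.38). Without DMSO C the HXK2 changes were 0.09 and 0.01, in the opposite direction and not called. The Mig repressor calls did not rest on that array: without it MIG3 was at 1.06 and 1.04 and MIG2 at 0.47 and 0.53, for BIPR and PHEN in that order, all of them called. GLK1 was at 0.24 ± 0.13 and 0.22 ± 0.13, EMI2 at 0.31 ± 0.19 and 0.27 ± 0.19 and PFK27 at -0.10 ± 0.12 and -0.14 ± 0.12, for BIPR and PHEN in that order. None of these was called, and without DMSO C EMI2 was at 0.08 with BIPR and 0.03 with PHEN. MIG1 was at 0.10 ± 0.09 with BIPR and 0.18 ± 0.09 with PHEN, the second being called without PHEN A (0.28). PFK26 was at 0.23 ± 0.10 with BIPR and 0.13 ± 0.10 with PHEN, the first being called without DMSO B (0.30) or BIPR C (0.27).

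Of the 9 members, 3 were called higher with BIPR, against 27.7% of all genes, and 3 with PHEN, against 29.2%, so both shares are near the background. No member was called lower with BIPR, against 18.5% of all genes, or with PHEN, against 19.7%.

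**Figure D2:**
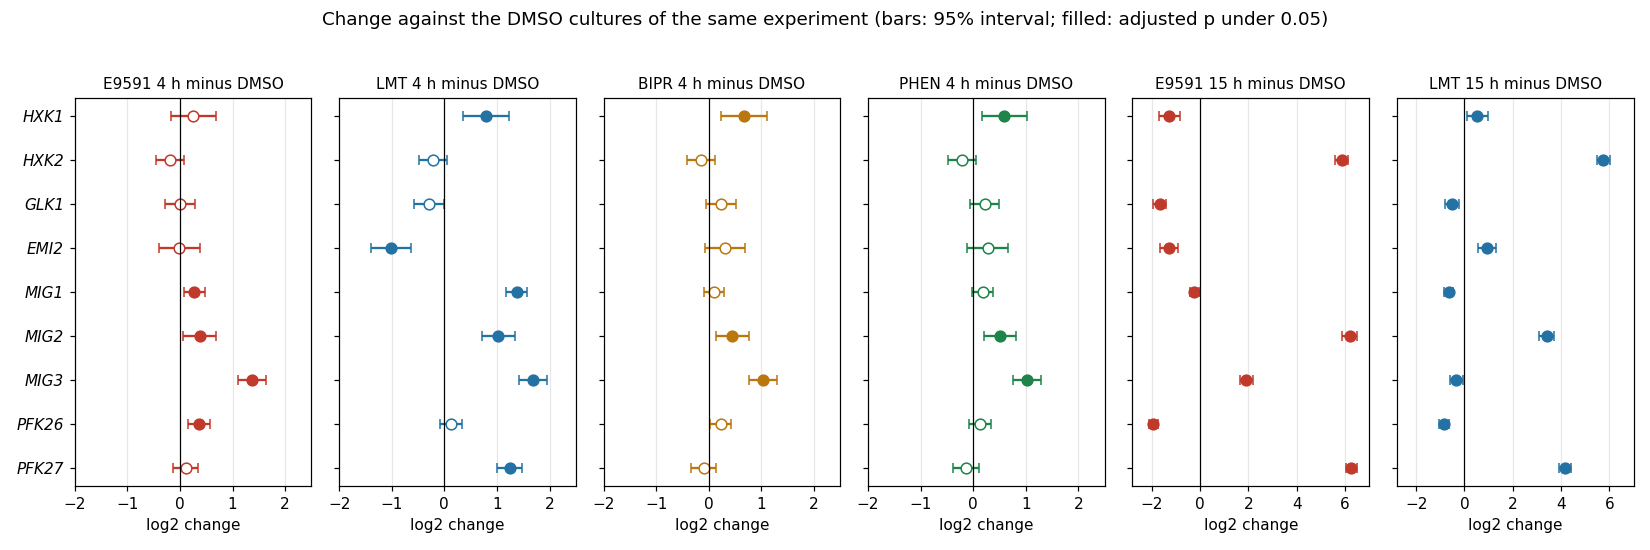
Change of each gene (log2, horizontal) with each treatment against the DMSO cultures of the same experiment; points are limma estimates, bars their 95% intervals, and filled points were called at an adjusted p under 0.05. MIG3 is called higher in all 4 comparisons at 4 h (1.02 to 1.68), and HXK2, MIG2 and PFK27 reach 3.40 to 6.27 at 15 h; the axes of the 4 h and 15 h panels differ.

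PHEN and BIPR differ in structure in that the 2 pyridine rings of bipyridyl are held by a further bridge in phenanthroline, which makes it a fused ring system. Set directly against each other at 4 h, each at its own IC50, 0 of 5429 genes were called (0%), and 286 genes but 0 members had an unadjusted limma p under 0.05. The PHEN minus BIPR difference was -0.07 ± 0.21 for HXK1 (95% interval -0.51 to 0.36) and -0.08 ± 0.13 for HXK2 (-0.34 to 0.19). For MIG3 it was -0.02 ± 0.13 (-0.28 to 0.25) and for PFK27 -0.04 ± 0.12 (-0.28 to 0.20). For all 9 members the interval lay within a 1.5-fold difference in either direction, so smaller differences between these chelators remain possible.

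The effects at 4 h were then compared between experiments, with p-values that leave out variation between experiments. The E9591 effect minus the LMT effect was -1.13 ± 0.16 for PFK27 (limma adjusted p = 1.82e-05), -1.10 ± 0.13 for MIG1 (limma adjusted p = 1.66e-06) and -0.65 ± 0.21 for MIG2 (limma adjusted p = 0.026). The changes of these genes were smaller with E9591 than with LMT. EMI2 lay within 0.01 of its DMSO level (log2) with E9591 and fell with LMT, a difference of 1.00 ± 0.26 (limma adjusted p = 0.00632). In all, 4 of 9 members were called in this comparison, against 26% of all genes. MIG3, at -0.30 ± 0.18 (95% interval -0.68 to 0.07), was not called. HXK1, at -0.54 ± 0.30 (95% interval -1.15 to 0.08), was not called either. With array weights both were called (-0.33 for MIG3 and -0.57 for HXK1), and HXK1 was also called in a fit of these experiments alone (-0.54). The MIG2 call was lost without DMSO A or C or E9591 B of the E9591 experiment, or DMSO A or LMT C of the LMT experiment (-0.63 to -0.57).

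Against the mean chelator effect, the LMT effect differed for 6 of 9 members, compared with 50.8% of all genes. PFK27 (1.36 ± 0.15, limma adjusted p = 1.09e-07), MIG1 (1.23 ± 0.13, limma adjusted p = 1.93e-08), MIG3 (0.65 ± 0.17) and MIG2 (0.55 ± 0.20) had the higher change with LMT. EMI2 (-1.30 ± 0.24, limma adjusted p = 1.05e-04) and GLK1 (-0.52 ± 0.18) had the lower change with LMT. The MIG2 difference was lost under both other scalings (0.48 and 0.43) and without DMSO A (0.47) or LMT C (0.49) of the LMT experiment. The GLK1 difference was lost without DMSO C, LMT B or LMT C of the LMT experiment (-0.46 each) or DMSO C of the chelator experiment (-0.42).

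The E9591 effect was not called different from the chelator effect for any of the 9 genes, although 28.9% of all genes were. No member had an unadjusted limma p under 0.05 in that comparison, whereas 2109 genes did. The difference was 0.35 ± 0.17 for MIG3 (95% interval -0.01 to 0.70) and -0.38 ± 0.28 for HXK1 (-0.95 to 0.20), and 5 of the 9 intervals lay within 1.5-fold. The HXK1 difference was -0.04 without DMSO C of the chelator experiment. Without DMSO B of the chelator experiment, MIG3 was called (0.49).

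The 3 groups of DMSO cultures at 4 h are labelled with the same strain, treatment and duration, each for its own experiment, and they differed from each other in these genes. The LMT experiment's DMSO cultures differed from those of the E9591 experiment in 7 of 9 members, against 59.9% of all genes, and from those of the chelator experiment in 6 of 9, against 62.3%. HXK1 had 2290.3, 2237 and 2838 in the LMT experiment against 6812, 6759 and 6425 in the E9591 experiment, a difference of -1.45 ± 0.21 (limma adjusted p = 3.22e-06). GLK1 (-0.76 ± 0.13), EMI2 (-0.85 ± 0.19) and MIG1 (-0.34 ± 0.09) were lower in the LMT experiment too. MIG2 (0.74 ± 0.15), MIG3 (0.66 ± 0.13) and PFK26 (0.38 ± 0.10) were higher there. Between the DMSO cultures of the chelator and E9591 experiments, MIG1 was the 1 member called (-0.78 ± 0.09, limma adjusted p = 8.26e-06), against 23.3% of all genes. HXK2 was called as well without DMSO C of the chelator experiment (-0.25). The E9591 and LMT cultures of the 4 h experiments were thus compared with DMSO cultures that stood at different HXK1, GLK1 and EMI2 levels.

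E9591 at 15 h was set against the DMSO cultures of the same experiment. HXK2, MIG2 and PFK27 rose 58.6-fold, 73.1-fold and 77.2-fold, and GLK1, HXK1, EMI2 and PFK26 fell between 2.43-fold and 3.81-fold. HXK2 had 11902, 10029 and 12489 with E9591 against 202, 205 and 177 in DMSO (5.87 ± 0.13, limma adjusted p = 1.28e-22). MIG2 had 2490.4, 2389 and 2839.7 with E9591 against 33.8, 49.0 and 23.9 in DMSO (6.19 ± 0.15, limma adjusted p = 8.61e-22). PFK27 had 3368, 3248 and 2696 with E9591 against 30.8, 46.7 and 41.4 in DMSO (6.27 ± 0.12, limma adjusted p = 6.67e-24). By the size of their rise, PFK27, MIG2 and HXK2 ranked 4, 5 and 6 among the 5429 genes. The DMSO levels of MIG2 and PFK27 are close to background, which lay between 12.5 and 13.6 on those arrays, and with 16 added to each intensity in place of 1 their folds were 51.1 and 56.3.

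MIG3 also rose with E9591 at 15 h, to 1704, 1633 and 1881 against 523, 437 and 422 in DMSO (1.92 ± 0.13, limma adjusted p = 6.49e-13). The falls were of HXK1, at 4365, 3493 and 5022 with E9591 against 11024, 10013 and 9992 in DMSO (-1.28 ± 0.21, limma adjusted p = 4.42e-06). GLK1 had 6499, 4781 and 7298 with E9591 against 21874, 17439 and 19143 in DMSO (-1.67 ± 0.13, limma adjusted p = 2.43e-11). For these 3 genes no E9591 culture reached the DMSO range. EMI2 had 2213, 1536 and 2336 with E9591 against 5193, 4654 and 4797 in DMSO (-1.29 ± 0.19, limma adjusted p = 6.42e-07). PFK26 had 797, 674 and 779 with E9591 against 2763, 3114 and 2708 in DMSO (-1.93 ± 0.10, limma adjusted p = 2.06e-15). The fructose-2,6-bisphosphate kinase genes thus moved in opposite directions, as did the hexokinase genes. MIG1 had 2479.7, 2625 and 2517 against 3454, 3002 and 2573, with overlap, and its change of -0.23 ± 0.09 (limma adjusted p = 0.0246) was lost without DMSO A (-0.13) or B (-0.23) or E9591 A (-0.22) or C (-0.23).

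At 15 h with E9591, 4 of 9 members were called higher and 5 lower, against 45.7% and 42.2% of all genes tested. A call is thus common at this time point.

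LMT at 15 h gave HXK2, MIG2 and PFK27 the same direction as E9591, and the remaining genes a partly different one. HXK2 had 10719, 9365 and 11357 with LMT against 202, 205 and 177 in DMSO (5.74 ± 0.13, limma adjusted p = 5.47e-22), the highest rise among the 5429 genes. PFK27 had 776, 734 and 649 with LMT against 30.8, 46.7 and 41.4 in DMSO (4.17 ± 0.12, limma adjusted p = 3.47e-20). MIG2 had 373, 359 and 378 with LMT against 33.8, 49.0 and 23.9 in DMSO (3.40 ± 0.15, limma adjusted p = 2.60e-16). The lowest LMT culture was over 7-fold above the highest DMSO culture for each of these genes. With 16 added to each intensity, the folds of MIG2 and PFK27 were 7.63 and 13.3, against 10.6 and 17.9 with 1 added.

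EMI2 rose with LMT at 15 h, to 9091, 9499 and 9366 against 5193, 4654 and 4797 in DMSO (0.93 ± 0.19, limma adjusted p = 6.36e-05), while its relative GLK1 fell, to 13164, 11981 and 15601 against 21874, 17439 and 19143 (-0.52 ± 0.13, limma adjusted p = 0.00104). HXK1 had 15297, 13215 and 16556 with LMT against 11024, 10013 and 9992 in DMSO (0.53 ± 0.21, limma adjusted p = 0.0223). No pair of groups overlapped, but the GLK1 call was lost under quantile normalization (-0.23). The HXK1 call was lost without DMSO B, DMSO C or LMT A (0.51 to 0.52) or LMT C (0.46). PFK26 had 1489.8, 1683 and 1584 with LMT against 2763, 3114 and 2708 in DMSO (-0.85 ± 0.10, limma adjusted p = 2.04e-08). MIG1 had 1724, 1893 and 2077 with LMT against 3454, 3002 and 2573 in DMSO (-0.66 ± 0.09, limma adjusted p = 8.04e-07). Both genes fell, each without overlap. MIG3 had 399, 343 and 351 against 523, 437 and 422 (-0.33 ± 0.13, limma adjusted p = 0.0202), a fall that was lost without DMSO A (-0.24), LMT B (-0.29) or LMT C (-0.31).

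In all, 5 of 9 members were called higher and 4 lower with LMT at 15 h, against 41.9% of all genes in each direction.

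Set directly against each other at 15 h, E9591 and LMT differed in 8 of 9 members, compared with 78.1% of all genes, and the shared DMSO arrays have no part in this comparison. MIG2 (2.79 ± 0.15, limma adjusted p = 2.28e-14), MIG3 (2.25 ± 0.13, limma adjusted p = 7.65e-14) and PFK27 (2.10 ± 0.12, limma adjusted p = 4.02e-14) were higher with E9591, and so, by less, was MIG1 (0.42 ± 0.09). EMI2 (-2.22 ± 0.19, limma adjusted p = 9.02e-11), HXK1 (-1.82 ± 0.21, limma adjusted p = 2.90e-08), GLK1 (-1.15 ± 0.13) and PFK26 (-1.08 ± 0.10) were lower with E9591. HXK2 was the member without a call, at 0.13 ± 0.13 with a 95% interval of -0.13 to 0.39. MIG2 ranked 21 and MIG3 72 of 5429 by the height of the E9591 level over the LMT level, and all 8 calls were kept under each of the 16 other settings.

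The DMSO cultures of the long exposure were compared with the mean of the 3 DMSO groups at 4 h. Exposure time, culture density and experiment cannot be told apart here. HXK2 fell by 6.08 on the log2 scale, with 202, 205 and 177 at 15 h against 11085 to 19036 in the 9 cultures at 4 h (limma adjusted p = 5.45e-25). Only 2 of the 5429 genes fell further. PFK27 (-4.39 ± 0.09, limma adjusted p = 4.42e-23) and MIG2 (-4.27 ± 0.12, limma adjusted p = 1.10e-20) fell as well. PFK26 (2.63 ± 0.08, limma adjusted p = 3.65e-20), MIG1 (2.07 ± 0.08), GLK1 (1.41 ± 0.11), HXK1 (1.24 ± 0.17) and MIG3 (0.68 ± 0.11) were higher at 15 h. EMI2, at 0.21 ± 0.15, was not called. This makes 5 of 9 members higher and 3 lower, against 48.3% and 42.6% of all genes.

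Side by side, the HXK2 levels with E9591 (10029 to 12489) and LMT (9365 to 11357) at 15 h overlap those of the treated cultures at 4 h (9877 to 13354), with 1 LMT culture below them. The DMSO cultures at 4 h had 11085 to 19036, and 2 of the 3 LMT cultures at 15 h lay below all of these. The low HXK2 level is that of the DMSO cultures at 15 h. PFK27 with LMT was at 649 to 776 at 15 h, beside 1855 to 2423 with LMT at 4 h and 738 to 947 in the DMSO cultures at 4 h, so 2 of its 3 cultures at 15 h lay below every DMSO culture at 4 h. MIG2 with LMT was at 359 to 378 at 15 h, below every culture at 4 h, and at 1849 to 2104 with LMT at 4 h. With E9591 at 15 h, PFK27 (2696 to 3368), MIG2 (2389 to 2839.7) and MIG3 (1633 to 1881) lay above every culture at 4 h, DMSO or treated. The highest cultures at 4 h were at 2423 for PFK27, 2104 for MIG2 and 1303 for MIG3, all with LMT. These levels come from different experiments and were not tested against each other.

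The effects of each compound at 15 h and at 4 h were also tested against each other. The E9591 effect differed between the exposures for 9 of 9 members, against 84.6% of all genes, and the LMT effect for 7 of 9, against 82.8%. For LMT, HXK1 (-0.26 ± 0.30, 95% interval -0.87 to 0.36) and GLK1 (-0.23 ± 0.19, -0.63 to 0.16) were not called. For MIG3 the 15 h effect lay above the 4 h effect with E9591 (0.54 ± 0.18) and below it with LMT (-2.01 ± 0.18).

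The balance of the hexokinase genes was followed as the log2 level of HXK2 minus that of HXK1 on each array, a difference that the scaling of an array does not move. It sets different probe sets side by side, so its zero does not mean equal amounts of message, and only its shifts between groups are described, without a test. E9591 at 4 h gave 0.77, 0.54 and 0.55 against 1.02, 1.02 and 1.17 in DMSO, and LMT at 4 h 1.14, 1.29 and 1.41 against 2.44, 2.45 and 1.99 in DMSO. In both experiments every treated array lay below every DMSO array. The group means were 0.62 ± 0.13 with E9591 against 1.07 ± 0.09 in DMSO, and 1.28 ± 0.14 with LMT against 2.29 ± 0.27 in DMSO (SD, n = 3). BIPR and PHEN averaged 0.61 ± 0.27 and 0.60 ± 0.33, against 1.42 ± 0.99 in DMSO, where replicate C stood at 2.56 and replicates A and B at 0.74 and 0.96. With A and B alone as the reference, the chelator arrays (0.30 to 0.96) overlap DMSO.

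At 15 h the difference was 1.43 ± 0.10 with E9591 and -0.52 ± 0.02 with LMT, against -5.73 ± 0.11 in DMSO (SD, n = 3 each). The groups were far apart, and the LMT arrays lay below all arrays of the 4 h experiments. DMSO at 15 h was the extreme, with HXK2 low and HXK1 high on the same arrays.

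**Figure D3:**
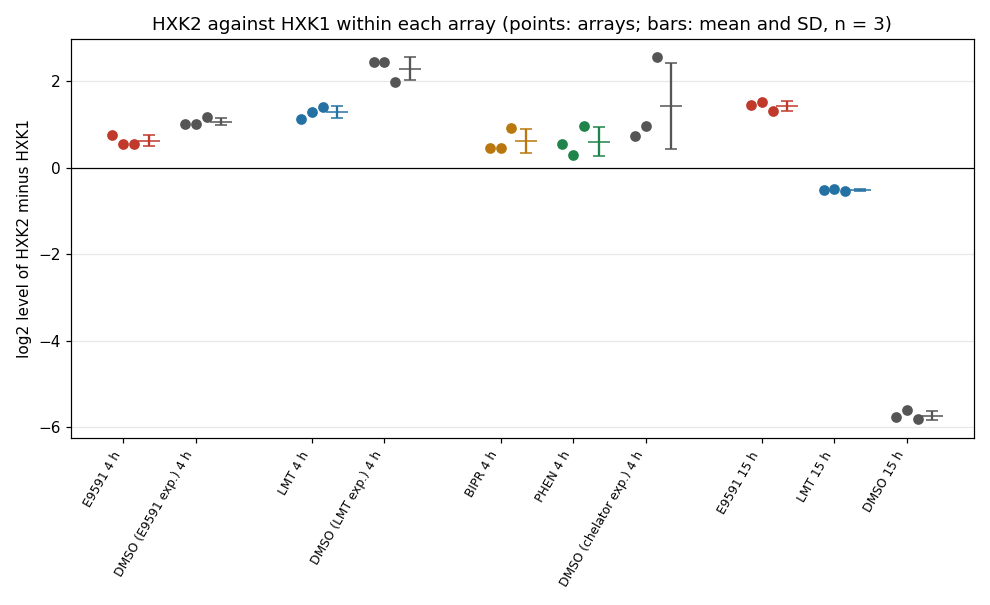
Log2 level of HXK2 minus that of HXK1 on each of the 30 arrays (vertical), by group; points are arrays, and bars beside them the mean and SD of 3. The DMSO arrays at 15 h lie at -5.81 to -5.61, LMT at 15 h at -0.54 to -0.50 and the other arrays between 0.30 and 2.56.

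Genes known to be repressed by glucose, many of them through Mig1 or its relatives, were followed as a list of 18, of which 17 were tested. At 4 h, with arrays scaled as deposited, most of this list was called higher with E9591 and with LMT, in the same comparisons in which MIG3 was called higher. With E9591, 12 of 17 were called higher and 0 lower, against 32% and 11.3% of all genes. The median change was 1.24, against 0.09 for all genes. The largest rises were those of MLS1, a malate synthase of the glyoxylate cycle, and ADH2, the alcohol dehydrogenase that consumes ethanol (2.22 ± 0.12). MLS1 lay below background in DMSO, so its rise is given as at least 4.09-fold. The 12 include the hexose transporter gene HXT13, which lay below background on all arrays of both groups. With LMT, 14 of 17 were called higher and 1 lower, against 40.4% and 25.2% of all genes. The median was 1.67, against 0.10 for all genes. JEN1, a lactate and pyruvate transporter (3.48 ± 0.23), and ADR1, an activator of genes for ethanol use (2.96 ± 0.24), had the largest rises, and HXT4, a hexose transporter, was the gene that fell (-0.93 ± 0.15). The invertase gene SUC2, a classic target of Mig1 repression that is named here after its values were seen, was at -0.06 ± 0.07 with E9591 and 0.11 ± 0.07 with LMT at 4 h, neither called. It was called higher with BIPR (0.36 ± 0.07) and PHEN (0.33 ± 0.07). With BIPR, 10 were called higher and 2 lower (median 0.38), against 27.7% and 18.5% of all genes. With PHEN, 8 were higher and 2 lower (median 0.33), against 29.2% and 19.7%. ADH2 (1.02 ± 0.12 and 1.00 ± 0.12) and the gluconeogenic PCK1 (1.02 ± 0.12 and 1.14 ± 0.12) led with both chelators. Under quantile normalization and median centring, 8 and 11 genes of the list were called higher with E9591 and 13 and 12 with LMT, with medians between 0.70 and 1.47. These counts are given without the shares of all genes under the same scalings.

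At 15 h the direction of this list was the reverse. With E9591, 14 of 17 were called lower and 3 higher (median -3.17), and with LMT 14 lower and 3 higher (median -2.68), beside medians of 0.05 and -0.01 for all genes. Of all genes, 42.2% were called lower and 45.7% higher with E9591, and 41.9% in each direction with LMT. The largest falls were those of MLS1 (-7.73 ± 0.43 with E9591 and -7.50 ± 0.43 with LMT) and FBP1, fructose-1,6-bisphosphatase (-7.38 ± 0.33 and -7.38 ± 0.33). The genes called higher with E9591 were HXT4 (4.57 ± 0.15), HXT2 (4.29 ± 0.10) and MAL33 (1.38 ± 0.12). With LMT they were HXT4 (5.43 ± 0.15), HXT2 (4.11 ± 0.10) and the invertase gene SUC2 (1.11 ± 0.07), which was called lower with E9591 (-0.35 ± 0.07). HXT2 and HXT4 encode hexose transporters that are known to be made when glucose is scarce but present. The 14 falls include HXT13, which was below background in the treated cultures and is given as at least 1.67-fold lower with E9591 and at least 1.35-fold lower with LMT. With HXT13 set at these bounds, the medians were -2.48 with E9591 and -1.63 with LMT. The counts were the same under both other scalings. In DMSO, 15 of 17 were higher at 15 h than at 4 h and 2 were lower (median 5.24), against 48.3% and 42.6% of all genes.

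Stress genes, of the kind that rise when growth slows, were counted beside these. Of 15, 6 were called higher and 0 lower with E9591 at 4 h (median 0.36), and 8 higher and 0 lower with LMT at 4 h (median 0.80). Over all genes 32% were called higher with E9591 and 40.4% with LMT, not far from these shares, and the medians were 0.09 and 0.10. The shares of all genes called lower were 11.3% with E9591 and 25.2% with LMT. HSP12, a membrane stress protein, had the largest rise with both (2.38 ± 0.22 and 5.18 ± 0.22). With BIPR 11 were higher and 1 lower, and with PHEN 10 higher and 1 lower, led by the small heat shock protein gene HSP26 (1.72 ± 0.28 and 1.59 ± 0.28), against 27.7% and 29.2% of all genes called higher. Of all genes, 18.5% were called lower with BIPR and 19.7% with PHEN. At 15 h all 15 were called lower with E9591 (median -3.45), and with LMT 12 were lower and 2 higher (median -0.68). Of all genes, 42.2% were called lower with E9591, and 41.9% in each direction with LMT. In DMSO all 15 were higher at 15 h than at 4 h (median 2.84), against 48.3% of all genes. The count for LMT at 4 h depended on the scaling, with 4 genes called lower under quantile normalization and 5 under median centring, beside 8 higher in both. The shares of all genes called under these scalings are not given here. The part of growth state in the changes of the 9 genes was not tested.

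Fewer glycolytic genes were called at 4 h than at 15 h, and calls over all genes were also fewer at 4 h. Of 14 tested, 1 was called higher and 1 lower with E9591 at 4 h, 1 higher and 4 lower with LMT, and 2 higher and 2 lower with either chelator. Of all genes, 32%, 40.4%, 27.7% and 29.2% were called higher with E9591, LMT, BIPR and PHEN. The shares called lower were 11.3%, 25.2%, 18.5% and 19.7%. FBP26, which encodes the phosphatase that removes fructose-2,6-bisphosphate, was called higher with E9591 (0.30 ± 0.09), LMT (0.24 ± 0.09), BIPR (0.30 ± 0.09) and PHEN (0.41 ± 0.09). PFK1, a subunit of phosphofructokinase, was called lower with E9591 (-0.25 ± 0.09), LMT (-0.54 ± 0.09), BIPR (-0.23 ± 0.09) and PHEN (-0.29 ± 0.09). Under quantile normalization no glycolytic gene was called with E9591 at 4 h (0 higher and 0 lower), and under median centring 0 were higher and 3 lower. With LMT 0 were called higher under both, so the FBP26 calls for E9591 and LMT were lost, and under quantile normalization 0 were called lower with either chelator. The shares of all genes under these scalings are not shown. At 15 h, 8 of 14 were higher and 4 lower with E9591, and 8 higher and 2 lower with LMT. Of all genes, 45.7% were called higher and 42.2% lower with E9591, and 41.9% in each direction with LMT. The shares of higher calls are thus not far above the background, and those of lower calls lie below it. The enolase gene ENO2 rose (3.24 ± 0.17 with E9591 and 3.27 ± 0.17 with LMT). FBP26 fell with E9591 (-3.35 ± 0.09), in the same direction as PFK26.

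The genes listed for the Snf1 kinase and glucose signalling, which include the repressor genes NRG1 and NRG2, showed no common direction. Of 23 tested, 9 were called higher and 3 lower with E9591 at 4 h, 9 and 5 with LMT, 6 and 4 with BIPR, and 5 and 6 with PHEN. Over all genes, 32%, 40.4%, 27.7% and 29.2% were called higher and 11.3%, 25.2%, 18.5% and 19.7% lower in these 4 comparisons in the same order, so most of the shares are near the background. The balance turned with the scaling: with E9591, 2 were higher and 6 lower under quantile normalization, and 3 higher and 9 lower under median centring. The shares of all genes under these scalings are not given here. The turn is therefore not a result about this list. The repressor gene NRG1 led with E9591 (1.04 ± 0.17) and LMT (1.59 ± 0.17). Its relative NRG2 led with BIPR (1.53 ± 0.10) and PHEN (1.47 ± 0.10), followed by TOS3, one of the kinases that activate Snf1 (1.40 ± 0.07 and 1.42 ± 0.07). At 15 h, 8 were higher and 12 lower with E9591, led by REG2 (-5.41 ± 0.14), a regulatory subunit of the Glc7 phosphatase, and SIP2 (-3.20 ± 0.07), a beta subunit of the Snf1 complex. With LMT 8 were higher and 11 lower, led by STD1 (2.58 ± 0.07), a regulator in the Rgt1 glucose sensing pathway, and REG2 (-2.12 ± 0.14). Of all genes, 45.7% were called higher and 42.2% lower with E9591 at 15 h, and 41.9% in each direction with LMT. The shares of this list are not far from that background.

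**Figure D4:**
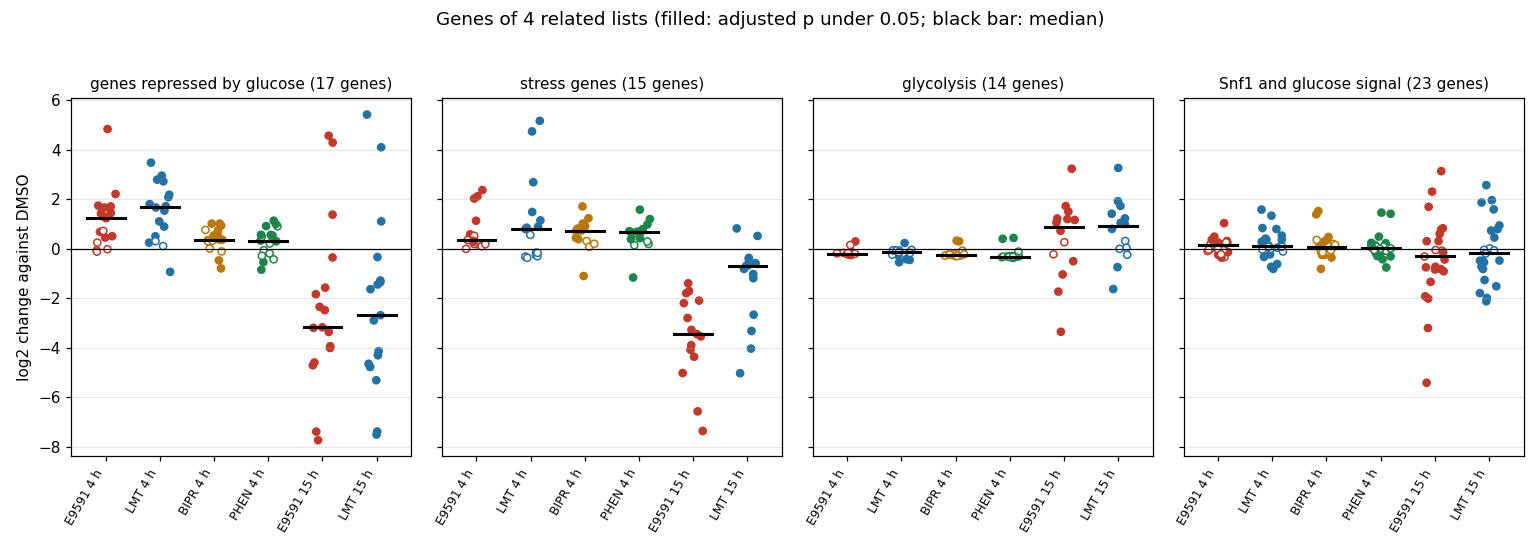
Change of each gene (log2, vertical) of 4 related lists with each treatment against its DMSO cultures; points are genes, filled where called at an adjusted p under 0.05, and black bars are medians. The genes repressed by glucose have medians of 1.24 and 1.67 with E9591 and LMT at 4 h and of -3.17 and -2.68 at 15 h.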

How the data were processed

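The deposited table gives the linear intensity of 10928 probe sets on each of 30 arrays, 1 per culture. The authors had scaled each array, since the 2% trimmed means lie between 1000.43 and 1000.82. The sources used here do not name the software, the probe summary or the background correction. A platform annotation named 5498 probe sets with 1 gene (5449 genes, symbols of 12 updated through a gene table of assembly R64), 1 with several and 3683 with none. A gene with several probe sets (47 genes) was represented by its brightest one on average. The floor of an array is the 95th percentile of 1746 probe sets of another yeast species (11.2 to 34.5), and genes above it on at least 3 arrays were tested (5429).

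Log2(intensity + 1) was fitted with limma 3.58.1 in R 4.3.3, with 10 group means over all 30 arrays (20 residual degrees of freedom, prior 3.16) and two-sided Benjamini-Hochberg adjusted p-values. P-values rest on 1 spread between cultures per gene, pooled over the 10 groups of all experiments. A group with widely spread cultures thus widens the standard errors of all comparisons. An exact test of 3 arrays against 3 cannot go below 0.1 and was not used. The number of arrays limits the precision. The code of the fit was also run on simulated data with independent normal noise of 1 spread per gene. Such data hold no outlying array, so they do not test how the fit handles one. The 9 members and, for each, the 2 genes with the most similar profile over group means were named by rule. The rule for lists was the 2 called genes with the largest change per list and comparison, but it was not kept throughout. Some such genes are not named above, for example PYK2 with BIPR (0.33 ± 0.08) and PHEN (0.44 ± 0.08). PFK1 with the chelators was named outside this rule, and genes that went against their list were named after their values were seen. The members and lists were chosen with earlier results of these data known. Alternatives were a pseudocount of 16, quantile normalization, median centring, no filter and a stricter filter, the mean of all probe sets, array weights, a variance trend, a replicate block, fits of single experiments and omission of each array. No sequence is shown, as none was used.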

Additional observations from a re-analysis of the deposited data

Results flagged for a closer look

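The effects of E9591 and LMT, each against its own DMSO cultures, were tested for a difference between the exposures of about 15 h and about 4 h, and the differences below passed that test (limma, Benjamini-Hochberg adjusted). Time, culture density and experiment cannot be told apart in them. For E9591 the 15 h effect exceeded the 4 h effect for PFK27 (6.16 ± 0.16), HXK2 (6.07 ± 0.18), MIG2 (5.81 ± 0.21) and MIG3 (0.54 ± 0.18). It lay below the 4 h effect for PFK26 (-2.29 ± 0.14), GLK1 (-1.67 ± 0.19), HXK1 (-1.54 ± 0.30), EMI2 (-1.28 ± 0.26) and MIG1 (-0.51 ± 0.13). The adjusted p-values ran from 2.24e-20 (PFK27) to 0.00824 (MIG3).

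For LMT the 15 h effect exceeded the 4 h effect for HXK2 (5.96 ± 0.18), PFK27 (2.93 ± 0.16), MIG2 (2.37 ± 0.21) and EMI2 (1.94 ± 0.26). It lay below the 4 h effect for MIG1 (-2.03 ± 0.13), MIG3 (-2.01 ± 0.18) and PFK26 (-0.98 ± 0.14). The adjusted p-values ran from 3.13e-19 (HXK2) to 6.53e-07 (PFK26). The larger effects of MIG2 and PFK27 at 15 h went with lower levels in the LMT cultures themselves. Mean MIG2 with LMT was 1947 at 4 h and 370 at 15 h, beside 957 and 35.6 in DMSO. Mean PFK27 with LMT was 2108 at 4 h and 719.5 at 15 h, beside 888 and 39.6 in DMSO. All 16 differences kept their call under each of the 22 other settings and omissions of an array. In the single experiments, the changes of MIG1, MIG3 and EMI2 against DMSO had opposite directions with LMT at 4 h and 15 h. MIG1 and MIG3 were called higher at 4 h and lower at 15 h, and EMI2 lower at 4 h and higher at 15 h. The mean MIG1 level with LMT was nearly the same, at 1891 (4 h) and 1898 (15 h). In DMSO it was 730 (4 h) and 3010 (15 h). MIG3 with LMT was at 1259 and 364, beside 393 and 460 in DMSO, and EMI2 at 1513 and 9319, beside 3015 and 4882. The MIG3 call at 15 h was lost without DMSO A, LMT B or LMT C and with array weights. With E9591, PFK26 (0.36 and -1.93) and MIG1 (0.27 and -0.23) were also called higher at 4 h and lower at 15 h. Their calls at 4 h were lost under both other scalings, and the MIG1 call at 15 h without some arrays.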

How the results depend on the processing

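No change of the 9 genes turned its direction while called. The number of members called with E9591 at 4 h was 4, and it was 1 under quantile normalization, 1 with arrays centred on their median, and 2 to 3 when 1 array was left out. With BIPR it was 3, and it was 1 with array weights, 5 with the replicate block (GLK1 and PFK26 added) and 1 to 4 when 1 array was left out, and with PHEN it was 3, and 1 with array weights. For the E9591 effect against the chelator effect it was 0, and 1 with array weights (MIG3, 0.48) and 0 to 1 with an array left out. For the DMSO cultures of the chelator against the E9591 experiment it was 1, and 1 to 2 with an array left out, 2 being the value without replicate C of the chelator DMSO group. Among the changes of single genes, array weights or fits of single experiments also ended the calls of MIG2 with PHEN at 4 h (0.49) and of HXK1 with BIPR (0.67) and PHEN (0.59). Fits of single experiments added HXK1 (0.26) and HXK2 (-0.19) to the calls for E9591 at 4 h.

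Replicate letters were checked as pairs: deviations of same-letter cultures from their group means correlated at -0.091 to 0.333. In no comparison were all 3 correlations over 0.1, and the letters were taken as names only. This does not show that pairing is absent, since E9591 and LMT at 15 h correlated at 0.244 (B) and 0.333 (C). With the letter as a block, the MIG2 call for E9591 at 4 h was lost (0.38, limma adjusted p = 0.0657) and GLK1 was called for LMT at 4 h (-0.29, limma adjusted p = 0.0116), as was HXK1 for the E9591 effect against the LMT effect (-0.54, limma adjusted p = 0.0433). Arrays, 3 per group, and the low signal of MIG2 and PFK27 in DMSO at 15 h limit these values. The way probes were summarised is unknown, and levels from different experiments rest on DMSO cultures that differ among themselves.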

Other observations

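Over the 10 group means, each member had genes with nearly the same profile, given as Pearson's r across groups as a description, since all genes share the same arrays and the DMSO group at 15 h weighs heavily. HXK2 followed LYS12, a lysine synthesis enzyme, and RPL22A, a ribosomal protein gene (0.999 and 0.998). MIG2 followed ALD5, a mitochondrial aldehyde dehydrogenase, and MRPL3, a mitochondrial ribosomal protein gene (0.998 and 0.996), and PFK27 followed YLH47 and PRP42 (0.986 and 0.984). GLK1 was nearest to KIN1 and the trehalose synthesis gene TPS1 (0.985 and 0.981), EMI2 to PHR1 and UGP1 (0.98 for both), and HXK1 to UBP9 and the glycogen phosphorylase gene GPH1 (0.961 and 0.954). MIG1 was nearest to NRG1, another glucose repressor gene, and HSP12 (0.976 and 0.971), MIG3 to JHD2 and IDH1 (0.971 and 0.969), and PFK26 to PET494 and SPS100 (0.991 and 0.991). Among the members, MIG2 and PFK27 were the closest pair (0.98), while MIG2 and MIG3 or HXK1 and HXK2, which are related in sequence, were 0.49 and -0.33.

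The mating-type genes used to check the strain moved as well. Of all genes, 32% were called higher at 4 h with E9591, 40.4% with LMT, 27.7% with BIPR and 29.2% with PHEN. The shares called lower were 11.3%, 25.2%, 18.5% and 19.7% in the same order. With E9591 at 4 h, 6 of 6 a-type genes were called higher, led by AGA2 (2.94 ± 0.14) and BAR1 (2.41 ± 0.16), while 0 of 4 alpha genes were called. With LMT at 4 h, 6 of 6 a-type genes were called higher, led by AGA2 (2.70 ± 0.14) and MFA2 (2.58 ± 0.15), and 4 of 4 alpha genes lower, led by MF(ALPHA)2 (-2.99 ± 0.14). With the chelators, 2 (BIPR) and 1 (PHEN) of the a-type genes were called higher, calls that were lost under both other scalings (0 of 6). MF(ALPHA)2 was called lower with BIPR (-0.59 ± 0.14) and PHEN (-0.56 ± 0.14), and SAG1 with PHEN (-0.29 ± 0.12). At 15 h, 45.7% of all genes were called higher and 42.2% lower with E9591, and 41.9% in each direction with LMT. With E9591 at 15 h, 5 of 6 a-type genes were called higher and 1 lower, and 3 of 4 alpha genes higher. With LMT at 15 h, 4 of 6 a-type genes were called lower and 0 higher, and 4 of 4 alpha genes higher (median 2.83). The part of these shifts in the changes of the 9 genes was not tested.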
